A study of Caenorhabditis elegans with 2 samples.

Results

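The genes described here are 9 Caenorhabditis elegans genes, out of 19985 annotated protein-coding genes. Other channel subunit and export genes are outside this set and are counted further below. The 9 genes encode voltage-gated calcium channel subunits and the NALCN sodium leak channels with their partner proteins. They were taken by name, and a peak was given to a gene when its summit had that gene's 5′ end as the nearest protein-coding 5′ end within 5 kb, or lay inside the gene body. The gene long known as nca-1 is listed in the annotation as unc-77 (WBGene00006809) and is called nca-1 here. Binding was measured by chromatin immunoprecipitation and sequencing in L2 larvae of strain OP83, of genotype unc-119(ed3) III with the insertion wgIs83, which carries eGFP-tagged ZAG-1. Whole mixed-sex animals were used, so a peak does not say in which cells ZAG-1 sat. There were 2 biological replicates of this 1 group, and no second condition.

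ZAG-1 is a zinc finger homeodomain protein of the ZEB family that acts in neuron differentiation. A voltage-gated calcium channel is built around a pore-forming alpha1 subunit, which opens on depolarization, with an alpha2delta and a beta subunit that help it reach the membrane and tune its gating. In the worm unc-2 encodes the channel of presynaptic transmitter release, egl-19 the L-type channel of muscle and neurons, and cca-1 the T-type channel. NALCN channels, encoded by nca-1 and nca-2, pass a sodium leak current that helps set the resting potential of neurons, and they depend on the large proteins UNC-79 and UNC-80.

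Of these 9 genes, 5 had a summit in the list that passed the authors' irreproducible discovery rate (IDR) threshold: unc-79, unc-80, ccb-1, unc-36 and nca-2. The same assignment gave a summit to 7.76% of all protein-coding genes. Of 4 other subunit and export genes outside the set, named further below, none had one. Within the set, all 4 genes for auxiliary or partner proteins had one, and 1 of the 5 pore-forming subunit genes, nca-2. This contrast differed between the replicates. With the strongest 1803 candidates of replicate 2 alone, that is without replicate 1, egl-19 and cca-1 had a summit too. That made 3 of 5 pore-forming genes, and without replicate 2 it was 1 of 5. The contrast also hung on the assignment. With gene bodies alone, nca-2 kept its summit and all 4 auxiliary or partner genes lost theirs (2.27% of all genes had one). With the nearest 5′ end within 1 kb or the gene body, ccb-1 and unc-79 lost theirs (5.79% of all genes). The nearest 5′ end within 5 kb alone left the contrast as it was (7% of all genes). By the main assignment the pore-forming genes unc-2, egl-19, cca-1 and nca-1 had none, and their best summits lay lower in the pooled list. A strong peak upstream of egl-19 was kept from that gene by an annotated coding gene of 30 bp, C48A7.16, as described below. The members are long genes, with bodies of 5.43 to 52.6 kb, and of the protein-coding genes with a body of at least 5 kb, 17.0% had an IDR-thresholded summit. Whether the members' share differs from that of other genes was not tested.

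The pooled replicates gave a list of 16325 candidates, and the IDR-thresholded list is made up of the top 1803 of these by score. Replicate 1 alone had 24146 candidates and replicate 2 had 29374. The pooled and replicate lists are labelled as holding background besides peaks, so a summit found only there is a candidate and not a called peak. The score is the authors' own value per peak, has no stated unit, and is compared here only within a list. In the IDR-thresholded list it ran from 29.6 to 449.9 with a median of 44.6. Read depth is unknown, since peak lists hold no read counts.

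The 5 IDR-thresholded peaks fell into a stronger and a weaker set. The unc-79 peak had a score of 78.5 and rank 267 of 1803, the unc-80 peak 74.7 and rank 306, and the ccb-1 peak 73.6 and rank 316. The unc-36 peak, with a score of 47.5, ranked 800, and the nca-2 peak, with 44.3, ranked 913. The last lay at about the median of the list.

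Both replicate lists held a peak over each of the 5. At unc-79 the replicate 1 peak ranked 328 in its list (score 46.6) and the replicate 2 peak 228 (score 32.4). The unc-80 peak ranked 297 in replicate 1 (score 48.8) and 397 in replicate 2 (score 26.2). The ccb-1 peak ranked 450 in replicate 1 (score 40.7) and 217 in replicate 2 (score 33.0). These peaks were thus within the strongest 1.86% of the replicate 1 list and the strongest 1.35% of the replicate 2 list. The unc-36 peak ranked 640 in replicate 1 (score 34.7) and 1224 in replicate 2 (score 15.0), and the nca-2 peak 902 (score 28.8) and 1764 (score 12.2). The summits of the replicates lay 13 bp apart at ccb-1, 21 bp at unc-79, 32 bp at unc-80, 39 bp at nca-2 and 70 bp at unc-36. Over all 1783 IDR-thresholded peaks that overlapped both replicate lists the median gap was 33 bp. The IDR-thresholded list was made from these replicate lists, so their overlap is not separate evidence for the peaks.

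**Figure D1:**
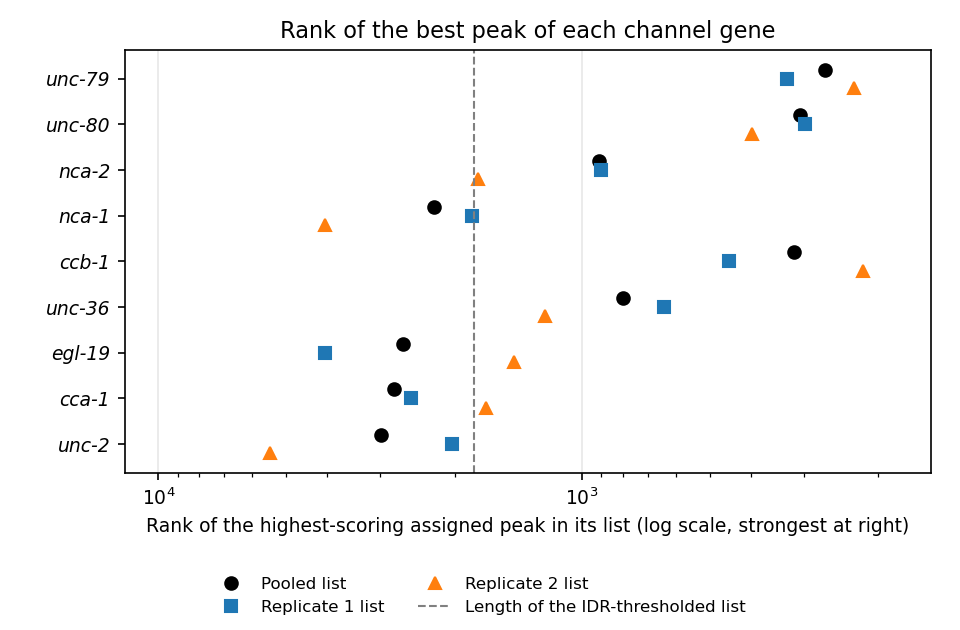
Rank of the highest-scoring assigned peak of each channel gene (rows) in the pooled list (circles), the replicate 1 list (squares) and the replicate 2 list (triangles), on a log axis with the strongest ranks at the right. The dashed line marks rank 1803, the length of the IDR-thresholded list. The pooled ranks of unc-79, unc-80, ccb-1, unc-36 and nca-2 lie to its right, and those of nca-1, egl-19, cca-1 and unc-2 between 2233 and 2981.

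Among the pore-forming calcium channel genes, unc-2 covers 52.6 kb of the X chromosome (chrX:2710920-2763526, minus strand) and has 8 annotated transcript starts. It had 18 summits in the pooled list, more than any other member, but the strongest had a score of 21.6 and rank 2981. Over the 18, the authors' −log10 q-value ran from 1.88 at the strongest summit down to 0.03. That summit (chrX:2730043) lay in intron 8 of the longest transcript. It overlapped a replicate 1 peak of rank 2028 and no replicate 2 peak. The best replicate 2 summit of unc-2 lay elsewhere, 54 bp downstream of an internal transcript start, at rank 5466. Of the 18 summits, 11 overlapped peaks of both replicates, and 14 lay in introns.

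The T-type channel gene cca-1 (chrX:7847678-7875954, minus strand, 28.3 kb) had 8 pooled summits. Its strongest, with a score of 22.6 and rank 2773, lay in intron 2, at 2255 bp from the 5′ end of the gene. The replicates placed it 175 bp apart, at rank 2531 in replicate 1 and rank 1686 in replicate 2. With the 1803 strongest peaks of replicate 2 alone, cca-1 would have had a peak.

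The L-type channel gene egl-19 (chrIV:7405582-7418740, plus strand) had 4 pooled summits, of which the strongest had a score of 23.4 and rank 2647. It lay in intron 12, and the replicates differed, with rank 6850 in replicate 1 and rank 1446 in replicate 2. This summit went to egl-19 through the gene body alone. It was also assigned to B0496.6, which had the nearest protein-coding 5′ end, 4803 bp away. A second summit in intron 2, at pooled rank 3213, ranked 4051 in replicate 1 and 3193 in replicate 2. A much stronger peak stood 3329 bp upstream of the 5′ end of egl-19 (chrIV:7402065-7402440). Its score of 109 put it within the strongest 5.71% of the IDR-thresholded list, above every peak assigned to a member. It ranked 100 in replicate 1 and 127 in replicate 2, with summits 20 bp apart. The rule gave it to C48A7.16, an annotated coding gene of 30 bp on the same strand, whose 5′ end was only 105 bp nearer. With the 79 protein-coding genes under 100 bp left out, an alternative chosen after the data were seen, the peak went to egl-19 and 6 of the 9 genes had an IDR-thresholded summit (7.71% of all genes).

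The sequences within 100 bp of the upstream egl-19 summit (chrIV:7402153-7402353, plus strand) and of the strongest unc-2 summit (chrX:2729943-2730143, minus strand) set the strongest peak near a pore-forming gene beside the weakest of the members' best peaks. Both are ce11 sequences, 5′ to 3′ along the gene. Capitals mark each match to GAGAGA, to the motif CGTCTC or to the motif CANNTG on either strand.
egl-19 upstream peak: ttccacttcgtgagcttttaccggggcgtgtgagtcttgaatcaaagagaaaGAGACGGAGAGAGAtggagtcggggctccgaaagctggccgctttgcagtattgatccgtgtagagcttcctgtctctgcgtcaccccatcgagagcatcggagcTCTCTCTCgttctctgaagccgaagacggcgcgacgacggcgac
unc-2 intron peak: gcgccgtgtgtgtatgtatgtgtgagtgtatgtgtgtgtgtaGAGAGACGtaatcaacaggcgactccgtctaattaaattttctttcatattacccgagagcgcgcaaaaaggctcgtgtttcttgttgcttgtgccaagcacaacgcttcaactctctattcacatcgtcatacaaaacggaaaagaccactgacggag
The egl-19 window held GAGAGA at 4 positions, in 2 overlapping pairs, and CGTCTC once, with a GC content of 56.7%. In the unc-2 window, with 45.3% GC, GAGAGA and CGTCTC overlapped at 1 place.

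The alpha2delta subunit gene unc-36 (chrIII:8193843-8201217, minus strand) had its IDR-thresholded summit 660 bp upstream of its 5′ end (peak chrIII:8201689-8202064). The summit lay between unc-36 and snb-5, a gene of the synaptobrevin family that runs the other way, whose 5′ end was 1177 bp from it. It also lay inside C50C3.15, an annotated non-coding RNA gene. The rule gave the peak to the nearest protein-coding gene of these. The only other pooled summit of unc-36, at rank 11251, lay in an intron.

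Of the NALCN pore-forming genes, nca-2 (chrIII:4965571-4979738, plus strand) had its IDR-thresholded summit in intron 1, at 1857 bp from the 5′ end. This is the only one of the 5 peaks that lay inside its gene. A weaker summit in the same intron, 2833 bp from the 5′ end, had pooled rank 3509 and ranks of 2466 in replicate 1 and 2534 in replicate 2. Another IDR-thresholded peak, with a score of 40.4 and rank 1083, stood 2441 bp upstream of nca-2. It was 86 bp from the 5′ end of C27F2.9 and was assigned there. That peak ranked 3870 in replicate 1 and 391 in replicate 2.

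Its paralog nca-1 (chrIV:6157306-6183857, minus strand, 26.6 kb) had 7 pooled summits and none past the IDR threshold. The strongest, with a score of 25.9 and rank 2233, lay 10749 bp inside the gene in intron 2 and 68 bp upstream of an internal transcript start. It ranked 1814 in replicate 1, just below the 1803 strongest peaks, and 4042 in replicate 2, where the summit was 218 bp away. No IDR-thresholded summit lay within 60.1 kb of the body of nca-1, the distance to the nearest one, assigned to lag-1.

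The partner genes unc-79 and unc-80 carried the strongest peaks assigned to a member. The unc-79 summit (peak chrIII:4063736-4064111) lay 2709 bp upstream of the gene (chrIII:4066633-4082849, plus strand). It stood between unc-79 and his-70, a histone gene that runs the other way and starts 3805 bp from it. An annotated non-coding RNA gene, E03A3.11, lay 104 bp away. Inside unc-79 there were 4 weaker pooled summits, the strongest in intron 2 with a score of 24.5 and rank 2436. At unc-80 (chrV:20879601-20898948, plus strand) the summit lay 119 bp upstream of the 5′ end (peak chrV:20879294-20879669). It was the only IDR-thresholded summit of a member in a promoter window, from 500 bp upstream to 100 bp downstream of a transcript start. Over all protein-coding genes, 3.57% had an IDR-thresholded summit in their own promoter window. The only other pooled summit of unc-80 had rank 14195.

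The 4 IDR-thresholded windows of unc-79 (chrIII:4063824-4064024), unc-80 (chrV:20879382-20879582), unc-36 (chrIII:8201777-8201977) and nca-2 (chrIII:4967328-4967528) show the sequence under these peaks within 100 bp of the summit. They are printed along the strand of the gene, which is minus for unc-36 and plus for the others, with capitals as above.
unc-79: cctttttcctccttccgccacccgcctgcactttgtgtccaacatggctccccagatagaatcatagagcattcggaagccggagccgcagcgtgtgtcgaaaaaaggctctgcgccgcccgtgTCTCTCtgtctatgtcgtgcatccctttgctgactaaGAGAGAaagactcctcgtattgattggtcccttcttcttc
unc-80: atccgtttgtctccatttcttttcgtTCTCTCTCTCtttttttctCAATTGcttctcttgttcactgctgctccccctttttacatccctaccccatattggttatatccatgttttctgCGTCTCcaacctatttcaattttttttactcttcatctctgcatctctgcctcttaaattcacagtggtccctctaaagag
unc-36: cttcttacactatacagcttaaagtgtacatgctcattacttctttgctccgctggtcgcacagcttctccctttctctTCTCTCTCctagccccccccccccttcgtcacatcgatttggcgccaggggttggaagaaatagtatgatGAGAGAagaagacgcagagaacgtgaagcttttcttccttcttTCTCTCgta
nca-2: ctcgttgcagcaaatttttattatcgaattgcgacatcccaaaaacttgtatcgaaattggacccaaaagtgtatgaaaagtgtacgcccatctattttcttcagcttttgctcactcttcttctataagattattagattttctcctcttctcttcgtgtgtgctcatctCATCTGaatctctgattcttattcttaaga
The unc-79 window had the highest GC content of these, 53.7%, and nca-2 the lowest, 35.8%. GAGAGA was found in the unc-79, unc-80 and unc-36 windows. In unc-80 the 3 matches overlapped and began 74 to 70 bp upstream of the summit. CGTCTC was found in unc-80, starting 20 bp downstream of the summit. The nca-2 window held neither, and its only match was CATCTG, one of the sequences that fit CANNTG, 71 bp downstream of the summit.

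Motifs were searched on both strands. CAGGTG, the type of E-box that ZEB proteins bind, was in 0 of the 5 IDR-thresholded windows of the members, and in 1.89% of all 1803 windows of the same 201 bp. CANNTG, which includes CAGGTG, was in 3 of 5, and in 56.9% of all windows. GAGAGA was in 4 of 5, and in 49.4% of all windows. CGTCTC, which can overlap GAGAGA, was in 1 of 5, and in 33.5% of all windows. The median GC content was 44.3% in the members' windows and 45.8% in all windows. GAGAGA and CGTCTC were searched because earlier results on these same peaks had picked them out. With 5 windows, these counts were not tested against the shares over all peaks.

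The beta subunit gene ccb-1 lies on chromosome I (3641651 to 3647082, minus strand) and is the shortest member, at 5.43 kb. Its IDR-thresholded summit was 1091 bp upstream of its only annotated start. A second pooled summit stood 86 bp upstream of that start, with a score of 17.6, and its replicates disagreed in rank, with 2530 in replicate 1 and 12992 in replicate 2. A further IDR-thresholded peak 3714 bp upstream, of rank 1795, was assigned to the collagen gene col-50. Its summit lay outside col-50, past the 3′ end of that gene and 1906 bp from its 5′ end. All 4 pooled summits of ccb-1 overlapped peaks of both replicates.

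**Figure D2:**
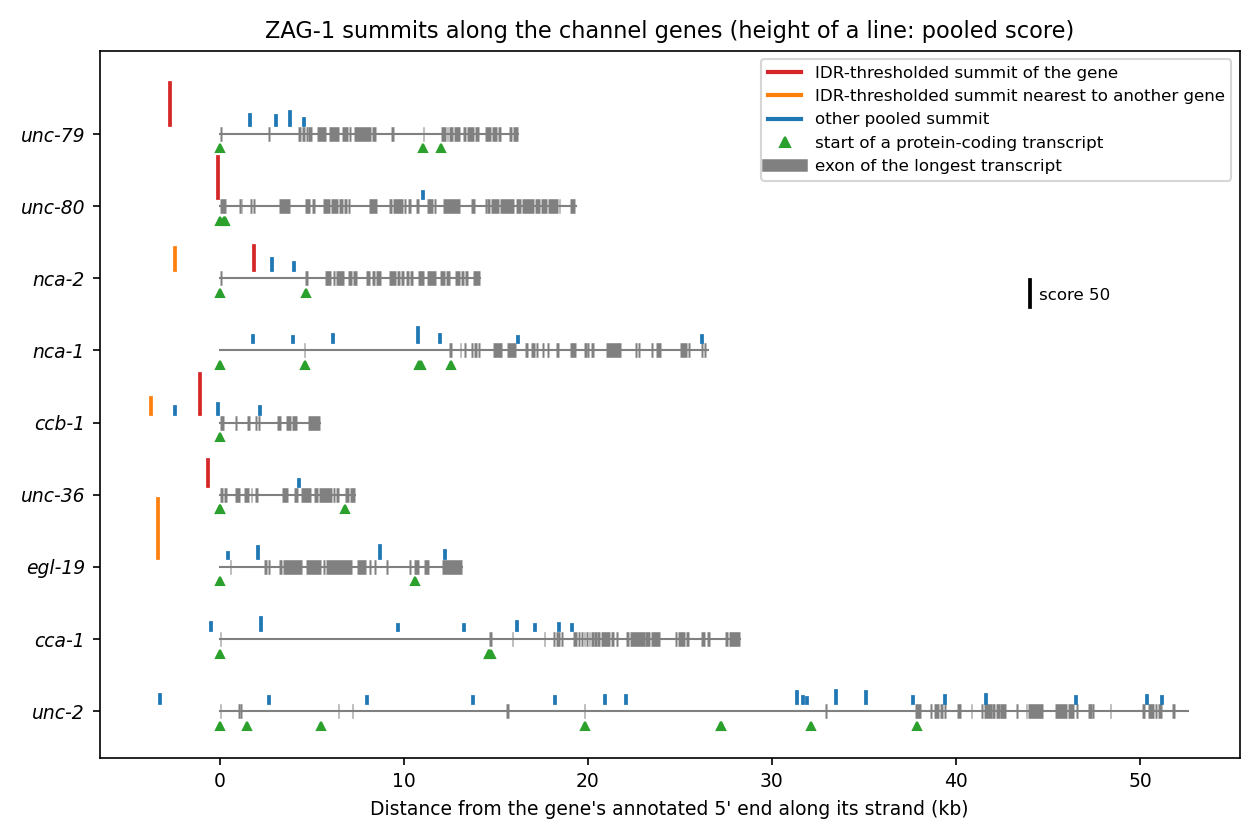
Pooled summits along the channel genes, with the distance from each gene's annotated 5′ end along its strand in kb on the x axis and 1 gene per row. Vertical lines are summits with their height set by the pooled score, grey blocks are exons of the longest transcript and green triangles are transcript starts. The tall red lines of unc-79, unc-80, ccb-1 and unc-36 stand upstream of the gene and that of nca-2 in its intron 1, and the tallest line, 3329 bp upstream of egl-19, is one assigned to another gene.

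All 9 members had a summit in the pooled list, as did 45.5% of all protein-coding genes. All 9 also had one in each replicate list, against 59.4% of genes in replicate 1 and 67.0% in replicate 2. The members' 53 pooled summits comprised 37 in introns, 8 in coding exons and 8 upstream of the gene. In the whole pooled list 32.2% of summits lay in introns, 14.6% in coding exons and 46.5% outside protein-coding transcripts. The rule itself gives long genes the summits in their introns, so these shares are not comparable. Of the 53, 35 (66.0%) overlapped peaks of both replicates, and 56.3% of all pooled peaks did. Per 10 kb of gene body plus 5 kb upstream, the members had 0.821 pooled summits at unc-80 up to 3.83 at ccb-1. The gene with the most pooled summits, unc-2, was the one whose best summit had the lowest pooled rank, while ccb-1, densest in summits, had one of the strongest peaks.

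Down to rank 913 the pooled list had reached 5 of the 9 genes. The same depth reached 4.10% of all protein-coding genes and 9.56% of those with a body of at least 5 kb. Down to rank 2981 the list had reached all 9. At that depth, which the lowest member sets, the same assignment reached 11.8% of all protein-coding genes and 26.1% of those with a body of at least 5 kb. Between ranks 913 and 2233 no member was added. In replicate 2, egl-19 and cca-1 lay among the 1803 strongest peaks, which made 7 of 9 members in that replicate alone, where the same depth reached 7.64% of all genes. In replicate 1 the same 5 members as in the IDR-thresholded list did, and the same depth reached 7.65% of all genes.

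**Figure D3:**
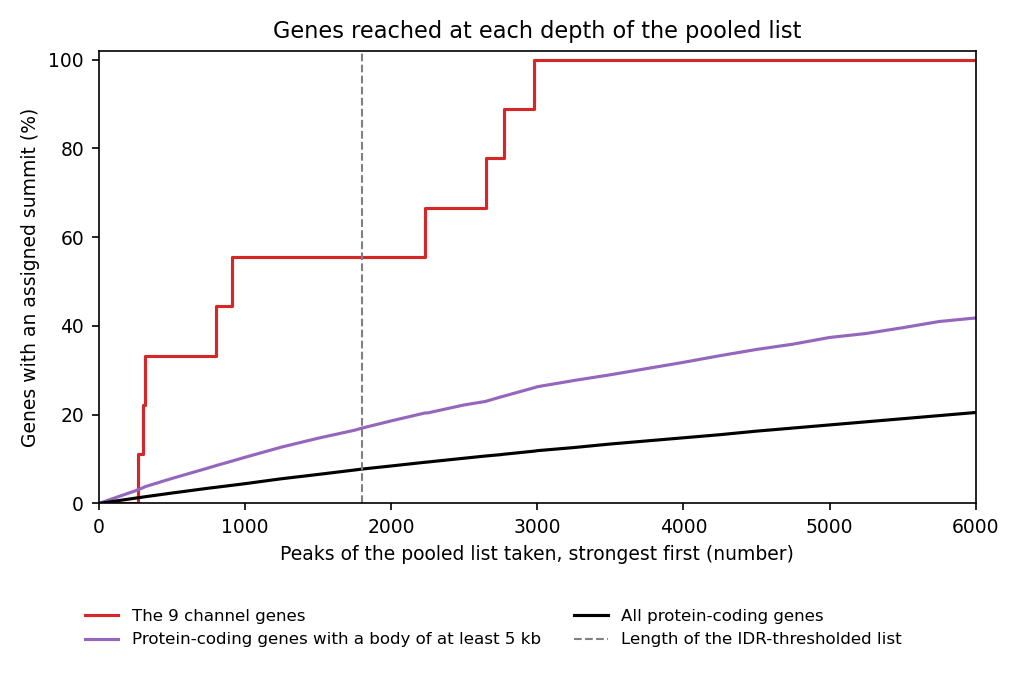
Share of genes with an assigned summit (%) against the number of pooled peaks taken, strongest first, for the 9 channel genes, for protein-coding genes with a body of at least 5 kb and for all protein-coding genes. The dashed line is at 1803 peaks. The channel genes reach 5 of 9 by rank 913 and 9 of 9 by rank 2981, where the other curves stand at 26.1% and 11.8%.

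Genes that work with these channels were counted in the same way. Of 6 genes for active zone proteins, 5 had an IDR-thresholded summit. They were unc-10 (RIM, score 82.5), syd-2 (liprin-alpha, score 74.9), rimb-1 (RIM-binding protein, score 74.7), cla-1 (score 48.2) and unc-13 (score 41.4), while elks-1 had none. At unc-10 the summit was at −4589 bp from the 5′ end, close to the limit of 5 kb. Of 10 genes for calcium effectors, which act downstream of calcium entry, 9 had one. The strongest was at cmd-1, which encodes calmodulin (score 192, rank 20), at −4756 bp from its 5′ end and so close to the limit of 5 kb. The calcineurin genes tax-6 (score 84.4) and cnb-1 (score 55.8), the kinase genes cmk-1 (score 61.2), ckk-1 (score 46.4) and unc-43 (score 32.3), the calcium-activated potassium channel gene slo-1 (score 55.2), the synaptotagmin gene snt-1 (score 38.6) and the CREB gene crh-1 (score 37.2) followed, and slo-2 had none.

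Of 6 calcium store and pump genes, 2 had a summit, the plasma membrane pump gene mca-3 (score 80.8) and the SERCA gene sca-1 (score 29.7, near the end of the list at rank 1799). The stores' release channel genes unc-68 and itr-1 had none, and neither did mca-1 and mca-2. None of the 4 other subunit and export genes had one: tag-180, ccb-2, nlf-1 and calf-1. Together with the active zone and effector genes these were 16 of 26 genes, against 7.76% of all genes, with a median body of 8.89 kb against 2.03 kb for all genes. The genes of these lists were picked with earlier results of these data known, and nothing was tested on them.

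Other channel families stood closer to the share of all genes. Of 72 potassium channel genes, 5 (6.94%) had an IDR-thresholded summit: slo-1, unc-103 (score 45.3), twk-2 (score 39.8), twk-49 (score 31.9) and twk-5 (score 29.9). Of 104 ligand-gated channel genes, 5 (4.81%) had one, namely lgc-21 (score 72.0), unc-63 (score 61.8), lgc-31 (score 34.2), lgc-12 (score 33.5) and lgc-50 (score 31.3). At lgc-21 the summit lay 3989 bp downstream of the 5′ end, outside the gene's transcripts. At lgc-50 it was at −4602 bp, close to the limit of 5 kb. The median gene body was 16.2 kb for the calcium and NALCN channel genes, 7.58 kb for the potassium channels and 4.16 kb for the ligand-gated channels, in the same order as the shares. The other lists did not keep that order, with median bodies of 15.4 kb for calcium stores and pumps (33.3% with a summit), 13.4 kb for active zone genes (83.3%), 10.5 kb for calcium effectors (90.0%) and 4.45 kb for the other subunit and export genes (0 of 4). The part of gene length in these shares was not tested.

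**Figure D4:**
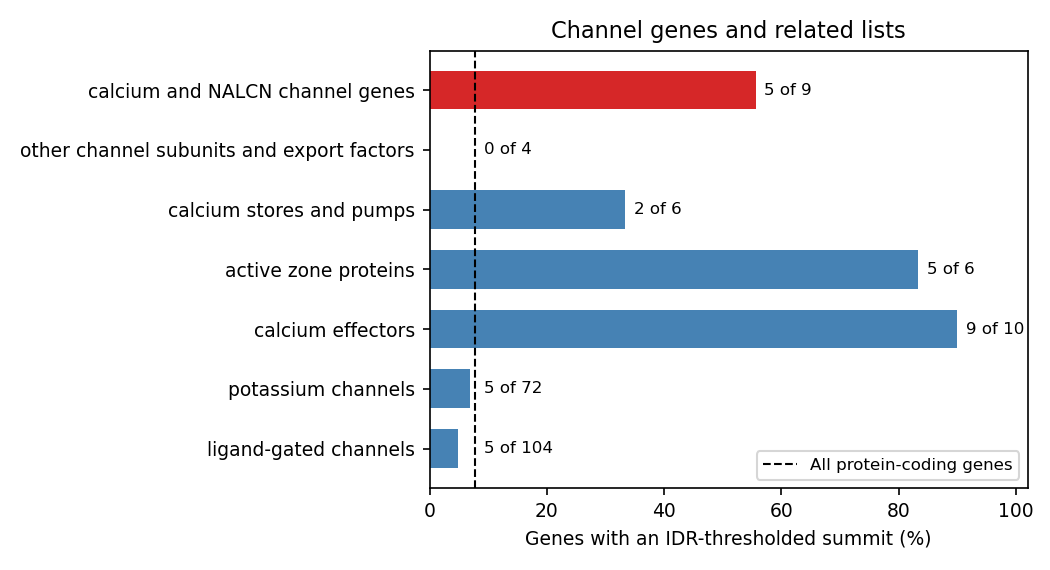
Share of genes with an IDR-thresholded summit (%) in the calcium and NALCN channel genes (top bar) and in 6 related lists, with the counts beside the bars. The dashed line is the 7.76% of all protein-coding genes. The channel genes stand at 5 of 9, active zone proteins at 5 of 6 and calcium effectors at 9 of 10, while potassium channels stand at 5 of 72 and ligand-gated channels at 5 of 104.

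The genes whose scores were most like those of unc-79, the highest-scoring member, were C37A2.8, fbxl-2 and saeg-1. Likeness was the distance between the log2 best scores in the pooled, replicate 1 and replicate 2 lists, over the 7482 genes with a summit in all 3. It was 0.090 for C37A2.8, 0.097 for fbxl-2 and 0.102 for saeg-1. Their pooled scores were 81.4, 83.5 and 77.3 in that order, against 78.5 for unc-79.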

How the data were processed

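Peaks were measured by chromatin immunoprecipitation and sequencing of eGFP-tagged ZAG-1 in 2 replicates of whole L2 larvae. Per the deposited file list, the authors made a list of peaks and background for each replicate and for both together, and derived the IDR-thresholded list from those 3 lists. Which caller, filters and IDR cutoff were applied is not given in the sources used here. Each deposited list holds, for every peak, the authors' score and a −log10 q-value from the authors. The latter ran only from 2.40 to 2.50 in the IDR-thresholded list, and from 0.02 to 2.50 in the pooled list. It was not used to choose or rank peaks. Of the IDR-thresholded peaks, 96.3% were 376 bp wide. The ce10 lists were not used.

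Summits (peak start plus the deposited offset) were placed with Python 3.11.15 on Ensembl release 115 (WBcel235, the ce11 assembly). A summit could go to more than 1 gene. Peaks of different lists were matched by an overlap of at least 1 bp, nearest summit first. Sequence came from the RefSeq genome of the same assembly. All peaks and genes lay within its chromosome lengths. Intron numbers refer to the longest coding transcript that spans the summit. No test was run, since the design has 1 group, and the text gives counts beside the share of all genes. The assignment was checked on simulated summits against a direct search.

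The members, gene lists and motifs were chosen with earlier results of these data known. All 9 members are named, with the genes of the related lists that had a peak, the genes nearest to a member's peak and the 3 genes most like the highest-scoring member. Of the listed symbols, unc-110 was not found, and 1 related list was left out whole, for a reason unrelated to its values, and is not reported here. Figures were drawn with matplotlib 3.10.9.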

Additional observations from a re-analysis of the deposited data

How the results depend on the processing

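With the nearest 5′ end alone the 5 members and 5 summits remained (7% of all genes). They also remained with any base of the peak in place of its summit (8.24% of all genes). With gene bodies alone 1 member, 1 summit and 6 genes of the related lists remained in place of 5, 5 and 16 (2.27% of all genes, in place of 7.76%). With the nearest 5′ end within 1 kb or the gene body, 3 members and 3 summits remained, ccb-1 and unc-79 being lost (5.79% of all genes). Any 5′ end within 5 kb gave 8 summits and added egl-19 (16.1% of all genes). The 901 highest-scoring peaks alone lost nca-2 (4.03% of all genes). The whole pooled list gave 9 members, 53 summits and 26 related genes (45.5% of all genes). Leaving out either replicate gave 5 to 7 members, 5 to 7 summits and 15 to 16 related genes; egl-19 and cca-1 were gained without replicate 1 (7.64% of all genes without replicate 1 and 7.65% without replicate 2). A promoter window from 1000 bp upstream held 2 members' summits in place of 1. Within 50 bp of the summit CANNTG was in 1 window in place of 3, and in 35.7% of all windows in place of 56.9%. Within 150 bp CGTCTC was in 3 in place of 1, and in 38.7% of all windows in place of 33.5%. No paired analysis was possible because the samples form 1 group. Read depth is unknown, so weak or absent peaks cannot be read as absent binding.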
